A study of Mus musculus with 3 samples.

Results

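Transcript levels of 10 enzymes and chaperones that hydroxylate, fold and crosslink collagen were measured in 3 kinds of cultured mouse heart cell. The genes were chosen by symbol for the step their products carry out, with earlier results of these data known. All 10 were among the 18245 genes of the deposited table. They were P4ha1, P4ha2 and P4ha3 (alpha subunits of prolyl 4-hydroxylase), Plod1, Plod2 and Plod3 (lysyl hydroxylases), Serpinh1 (the collagen chaperone Hsp47), and Lox, Loxl1 and Loxl2 (lysyl oxidases). Per the labels, the mice were C57BL/6 and the tissue was the epicardium of the heart ventricle for all 3 kinds. CDC were cardiosphere-derived cells from 6-week-old mice at passage 3, grown out of explants by way of floating spheres and given no inhibitor. CDC-EpiC was an epithelial clone picked from CDC cultures that had been given 10 µM SB-431542, which blocks signalling through type I receptors of TGF-beta, for 2 weeks. pEpiC were primary epicardial cells from 6- to 8-week-old mice at passage 3, freed from the heart with enzymes and given no inhibitor. CDC and pEpiC were grown in different media, so cell kind and medium cannot be told apart in their comparison. The clone is 1 clone with 3 libraries, so the inhibitor, the picking of a clone and differences between clones cannot be told apart either. The table holds 3 library columns for each kind, while GEO lists 1 sample. The labels speak of 3 separate samples of each kind without naming animals or cultures. The study's methods give fewer biological replicates than there are columns, while its caption for the comparison of CDC and pEpiC gives n = 3. Here n = 3 therefore counts library columns, and the p-values measure the spread between them, which may be technical.

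Collagen chains are modified as they enter the endoplasmic reticulum. Prolyl 4-hydroxylase adds the hydroxyl groups that hold the triple helix together at body temperature, and its alpha subunits work as tetramers with protein disulfide isomerase. Lysyl hydroxylases modify lysines that later carry sugars or take part in crosslinks, and Plod2 is the enzyme known for the lysines at the ends of the chains, the telopeptides. Hsp47 binds the folded helix on its way to the Golgi apparatus, and outside the cell the lysyl oxidases oxidise lysines so that neighbouring collagen and elastin molecules crosslink. In the heart these steps are best known from fibroblasts and from fibrosis after injury.

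Total expected counts were 22008833 to 22756045 per library, and every one of the 10 genes passed the filter on low counts in every comparison. Levels are given as CPM, counts scaled to a common library total after TMM normalization. Adjusted p-values are Benjamini-Hochberg values over all genes tested, from the quasi-likelihood test of edgeR, with 0.05 as the threshold. The kinds differed in most genes, so a member past the threshold is not unusual in itself. The summed level of 10 macrophage markers was 72.4 to 74.1 CPM in CDC, 30.1 to 32.9 CPM in CDC-EpiC and 299 to 835 CPM in pEpiC, where library 1 was the highest. No macrophage marker was at 0 in every library of CDC or pEpiC, and 1 was in CDC-EpiC. However, 5 of the 10 had at most 3 counts in every CDC library and 6 in every CDC-EpiC library, against 0 in pEpiC. The largest in CDC were Lyz2 (mean 37.7 CPM), Csf1r (19.6 CPM) and Cd14 (13.9 CPM). Endothelial markers (10 genes) summed to 7.52 to 8.62, 8.55 to 9.99 and 24.5 to 26.8 CPM in CDC, CDC-EpiC and pEpiC, with 4 of them at 0 in every CDC-EpiC library. Tek alone averaged 17.6 CPM in pEpiC. Cardiomyocyte markers (10 genes) summed to 9.60 to 26.9, 11.7 to 13.6 and 138 to 155 CPM, none of them at 0 in every library of a kind. Tnnt2 alone averaged 145 CPM in pEpiC, 9.58 CPM in CDC and 8.76 CPM in CDC-EpiC. Of the 10 markers, 4 had at most 3 counts in every pEpiC library, and 4 in every CDC-EpiC library. Myh6 averaged 0.014 CPM in pEpiC and 5.81 CPM in CDC, where it ranged from 0 to 8.81 CPM. All 8 epicardial markers were detected in every kind, and their sum was 475 to 485 CPM in CDC, 2983 to 3403 CPM in CDC-EpiC and 352 to 362 CPM in pEpiC. Among them Upk3b averaged 2655 CPM in CDC-EpiC and 69.4 CPM in pEpiC, while Krt19 averaged 1.22 CPM in pEpiC. In pEpiC against CDC, 3 of the 8 markers were higher (Wt1, Tcf21 and Aldh1a2) and 5 lower. Tcf21 averaged 102 CPM in pEpiC, 12.3 CPM in CDC and 27.9 CPM in CDC-EpiC. Aldh1a2 averaged 20.04, 2.31 and 2.01 CPM in the same order, and Wt1 51.1, 10.04 and 119 CPM. In CDC-EpiC against pEpiC, 6 markers were higher and 2 lower (Tcf21 and Aldh1a2). The part of these other cells in the results that follow was not tested, and in such bulk samples fewer cells of a type and less RNA per cell cannot be told apart. In pEpiC library 1, with a macrophage sum of 835 CPM against 325 and 299 CPM in libraries 2 and 3, Plod2 was at 535 CPM against 569 and 591 CPM. Plod1 was at 148 CPM there against 135 and 141 CPM, and Loxl1 at 933 CPM against 973 and 868 CPM. The members thus did not share a direction in that library. Without that library, 9 of the 10 genes passed in pEpiC against CDC, beside 75.7% of all genes, and 8 in CDC-EpiC against pEpiC, beside 80.3%.

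In pEpiC against CDC, all 10 genes passed the threshold, where 78.3% of the 13526 genes tested did. There were 6 higher genes (P4ha1, Plod1, Plod2, Serpinh1, Loxl1 and Loxl2), against 39.8% of all genes, and 4 lower genes (P4ha2, P4ha3, Plod3 and Lox), against 38.5%, but Plod3 and Lox had the opposite sign on the TPM scale and Loxl2 with a correction that takes a trend with transcript length out of each library. The libraries of the 2 kinds did not overlap for 9 of the 10 genes, the exception being Loxl2, and for 81.5% of all genes. The median log2 change of the 10 genes was 0.35, beside 0.02 over all genes. At least 2-fold changes were found for 4 genes (P4ha3, Plod1, Plod2 and Loxl1), beside 30.1% of all genes. On the TPM scale, where the median of all genes moved to 0.41 and 8237 of 11059 calls were higher rather than 5380 of 10593, 7 members passed as higher and 1, P4ha3, as lower.

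In CDC-EpiC against CDC, 9 of the 10 genes passed, beside 68.8% of 12976 genes. Here 7 genes were lower (P4ha1, P4ha2, P4ha3, Plod1, Plod2, Plod3 and Lox), where 34.6% of all genes were, and 2 were higher (Loxl1 and Loxl2), where 34.2% were. Serpinh1 did not pass. The libraries did not overlap for 7 genes, beside 72.1% of all genes. The median log2 change was -0.67, beside 0.0027 over all genes, and 3 genes (P4ha1, P4ha3 and Plod2) changed at least 2-fold, beside 21.7%.

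In CDC-EpiC against pEpiC, 9 genes passed, beside 81.9% of 13547 genes, and all 9 were lower in the clone, where 41.5% of all genes were lower and 40.3% higher. The gene that did not pass was Loxl2, and it was also the 1 gene whose libraries overlapped, beside 84.0% of all genes without overlap. The median log2 change was -0.48, beside -0.018 over all genes. Changes of at least 2-fold were found for 4 genes (P4ha1, Plod1, Plod2 and Loxl1), beside 35.9% of all genes. On the TPM scale the median of all genes moved to -0.33 and 3691 of 11232 calls were higher rather than 5465 of 11091, and all 10 members passed as lower. The 3 comparisons share libraries by pairs, so their values stand side by side and are not independent of each other.

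**Figure D1:**
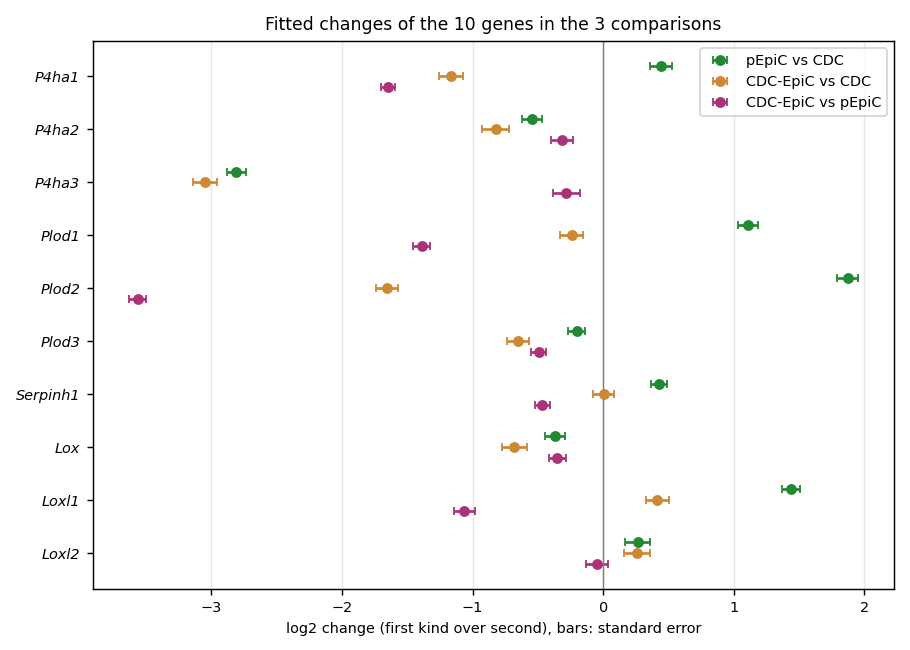
Fitted log2 change (horizontal axis) of each of the 10 genes (rows) in pEpiC against CDC (green), CDC-EpiC against CDC (orange) and CDC-EpiC against pEpiC (purple), with the standard error as bars and 0 as the grey line. Plod2 spans the widest range, from -3.57 to 1.87, P4ha3 is at -2.81 and -3.05 in the comparisons with CDC, and no point of CDC-EpiC against pEpiC lies right of 0. In pEpiC against CDC, the points of Lox and Plod3 change sign on the TPM scale, and that of Loxl2 with the correction for transcript length, which also changes the sign of Loxl2 in CDC-EpiC against pEpiC. The point of Serpinh1 in CDC-EpiC against CDC lies near 0 and changes sign under several settings.

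Of the prolyl 4-hydroxylase alpha subunits, P4ha3 differed most in both comparisons with CDC. P4ha1 (NCBI Gene 18451, GRCm38.p6 chr10:59323197-59373304) encodes the alpha subunit that most tissues use. P4ha1 measured 249.6, 222 and 284 CPM in CDC, 106, 115 and 117 CPM in CDC-EpiC, and 343, 343 and 371 CPM in pEpiC. The 3 kinds were fully separated, in the order pEpiC, CDC, CDC-EpiC, with means of 252 ± 30.8 CPM in CDC, 113 ± 5.39 CPM in CDC-EpiC and 352 ± 16.4 CPM in pEpiC (SD, n = 3). P4ha1 was 1.36-fold higher in pEpiC than in CDC (log2 change 0.44, SE 0.085, adjusted p = 0.00081). It was 2.24-fold lower in CDC-EpiC than in CDC (log2 change -1.17, SE 0.091, adjusted p = 2.2e-08). The clone was also 3.13-fold below pEpiC (log2 change -1.65, SE 0.057, adjusted p = 2.9e-09). P4ha2 (chr11:54100924-54131668) encodes the second alpha subunit, known from cartilage and bone. P4ha2 measured 107, 89.2 and 111 CPM in CDC, 48.8, 62.2 and 63.0 CPM in CDC-EpiC, and 72.7, 71.1 and 72.6 CPM in pEpiC. CDC stood above both other kinds in every library, and pEpiC above the clone. The log2 change was -0.55, adjusted p = 8.5e-05 in pEpiC against CDC. It was -0.82, adjusted p = 4.8e-06 in CDC-EpiC against CDC and -0.32, adjusted p = 0.0057 in CDC-EpiC against pEpiC. On the TPM scale the difference between pEpiC and CDC was -0.039 and did not pass (adjusted p = 0.72, limma).

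P4ha3 (chr7:100285489-100319701) encodes the third alpha subunit. P4ha3 measured 89.3, 83.6 and 94.6 CPM in CDC, 10.5, 9.90 and 11.96 CPM in CDC-EpiC, and 13.4, 12.2 and 13.8 CPM in pEpiC. CDC held the gene at several times the level of the other kinds, with means of 89.2 ± 5.49 CPM in CDC, 10.8 ± 1.06 CPM in CDC-EpiC and 13.1 ± 0.847 CPM in pEpiC (SD, n = 3). P4ha3 was 7.02-fold lower in pEpiC than in CDC (log2 change -2.81, SE 0.074, adjusted p = 8.6e-10) and 8.29-fold lower in CDC-EpiC (log2 change -3.05, SE 0.092, adjusted p = 3.7e-13). These changes were larger in size than those of 92.6% and 96.1% of the genes tested. The difference between the 2 low kinds was small (log2 change -0.28, SE 0.10, adjusted p = 0.025). It did not pass without CDC-EpiC library 1 (adjusted p = 0.064) or 2 (0.083), or without pEpiC library 1 (0.055) or 3 (0.081).

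**Figure D2:**
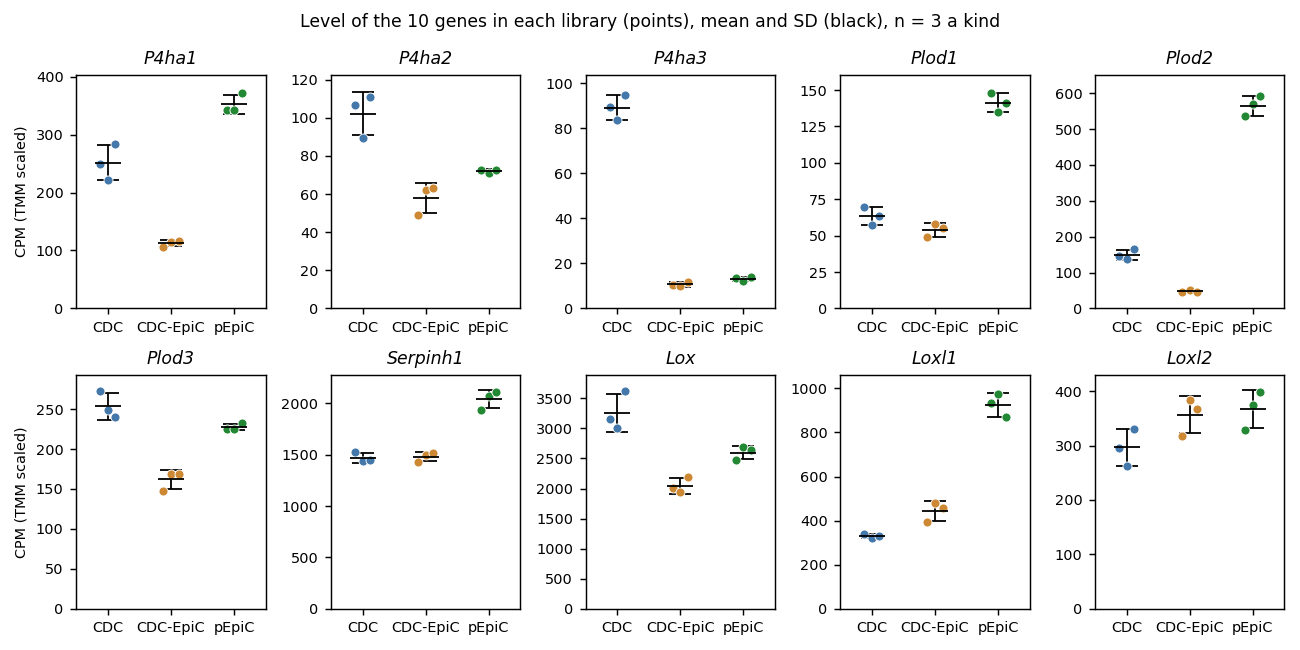
Level of each of the 10 genes (panels) in CPM after TMM scaling (vertical axis, from 0) in the 3 libraries of each kind (points), with the mean and SD in black. P4ha3 was high in CDC alone among the 3 kinds, P4ha1, Plod1, Plod2, Serpinh1 and Loxl1 were highest in every pEpiC library, and the libraries of the 3 kinds overlapped for Loxl2.

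As TPM, a scale per transcript length on which genes can be compared within a library, P4ha1 made up 50.9% ± 1.195 (SD, n = 3) of the summed message of the alpha subunits in CDC, 55.7% ± 1.93 in CDC-EpiC and 76.4% ± 0.592 in pEpiC. P4ha2 made up 26.4% ± 0.752, 37.3% ± 2.15 and 20.02% ± 0.586 in the same order. P4ha3 made up 22.7% ± 1.09 in CDC, 6.99% ± 0.783 in CDC-EpiC and 3.61% ± 0.125 in pEpiC. The kinds did not overlap in any of these shares, and the exact two-sided permutation test of 3 against 3 libraries gave p = 0.1 for every pair, the smallest value it can give. The summed TPM of the 3 subunits was 301 ± 43.0 in CDC, 126 ± 11.5 in CDC-EpiC and 382 ± 12.6 in pEpiC.

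The promoters of the alpha subunits are shown because these genes of 1 family had different orders across the kinds. In the RefSeq promoter table (GRCm38.p6), 6 of the 10 genes had a window (P4ha1, P4ha2, P4ha3, Plod1, Plod3 and Serpinh1). The 250 bases before the listed start were searched on both strands for ACGTG, a form of the core of the site bound by hypoxia-inducible factors, overlaps included. Other forms of this core, such as GCGTG, were not searched and are not in capitals below. It was found in 4 of the 6 windows, at 16 bases before the start in P4ha1, 78 in P4ha2, 54 in Plod3 and 171 in Serpinh1, and in 16.6% of all 32851 windows of the same length. These letters are not in the windows of P4ha3 and Plod1. The GC content was 69.6% in P4ha1, 70.0% in P4ha2 and 67.2% in P4ha3, beside a median of 52.4% over all windows. It was 61.6% in Plod1, 55.6% in Plod3 and 63.6% in Serpinh1. The motif itself holds a CG, and the windows were not matched for base composition. The share of 4 of 6 therefore cannot be set against 16.6% as like with like. The stretches outside the annotated gene are printed on the plus strand, on which all 3 genes lie, with the motif on either strand in capitals; the motif of P4ha1 lies within the annotated gene, and 30 bases around it are given apart.
P4ha1, chr10:59323046-59323196: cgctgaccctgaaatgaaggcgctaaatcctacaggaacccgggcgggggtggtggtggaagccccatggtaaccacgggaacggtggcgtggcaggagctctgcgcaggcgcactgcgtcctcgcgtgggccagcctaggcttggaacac
P4ha1 motif, chr10:59323266-59323295: ggtgtgacagagcgCACGTagcgagggctg
P4ha2, chr11:54100674-54100923: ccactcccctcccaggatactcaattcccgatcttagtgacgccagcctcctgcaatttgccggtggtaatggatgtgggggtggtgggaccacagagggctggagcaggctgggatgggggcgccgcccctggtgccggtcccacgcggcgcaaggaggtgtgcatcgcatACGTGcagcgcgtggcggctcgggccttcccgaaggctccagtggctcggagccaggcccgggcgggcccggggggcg
P4ha3, chr7:100285270-100285488: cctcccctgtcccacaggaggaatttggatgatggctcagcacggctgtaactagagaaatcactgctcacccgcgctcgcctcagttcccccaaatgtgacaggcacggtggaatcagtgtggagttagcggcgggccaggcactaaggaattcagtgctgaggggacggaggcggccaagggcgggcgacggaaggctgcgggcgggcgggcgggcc

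Among the lysyl hydroxylases, Plod2 differed most between the kinds. Plod1 (NCBI Gene 18822, chr4:147909753-147936776) encodes the hydroxylase that acts on lysines of the helix. Plod1 measured 69.8, 57.6 and 63.5 CPM in CDC, 49.0, 58.1 and 55.1 CPM in CDC-EpiC, and 148, 135 and 141 CPM in pEpiC. All pEpiC libraries lay above the others, while CDC and CDC-EpiC overlapped. Plod1 was 2.16-fold higher in pEpiC than in CDC (log2 change 1.11, SE 0.076, adjusted p = 4.5e-07) and 2.62-fold lower in CDC-EpiC than in pEpiC (log2 change -1.39, SE 0.067, adjusted p = 2.9e-08). Between CDC-EpiC and CDC the log2 change was -0.24, adjusted p = 0.025. It did not pass without CDC library 1 (adjusted p = 0.14) or CDC-EpiC library 1 (0.1), nor with scaling by library size alone (0.063), on FPKM (0.082, limma) or on TPM (0.18, limma). Plod2 (chr9:92539636-92608428) encodes the telopeptide lysyl hydroxylase. Plod2 measured 145, 138 and 166 CPM in CDC, 46.1, 50.2 and 47.0 CPM in CDC-EpiC, and 535, 569 and 591 CPM in pEpiC. The kinds were far apart without overlap, with means of 149.7 ± 14.5 CPM in CDC, 47.8 ± 2.17 CPM in CDC-EpiC and 565 ± 28.3 CPM in pEpiC (SD, n = 3). Plod2 was 3.66-fold higher in pEpiC than in CDC (log2 change 1.87, SE 0.079, adjusted p = 1.7e-08). It was 3.15-fold lower in CDC-EpiC than in CDC (log2 change -1.65, SE 0.085, adjusted p = 1.6e-10). Between the clone and pEpiC the difference was 11.8-fold (log2 change -3.57, SE 0.063, adjusted p = 5.2e-11), larger in size than for 92.4% of the genes tested.

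Plod3 (chr5:136987019-136996646) encodes a hydroxylase that also adds sugars to hydroxylysine. Plod3 measured 273, 248 and 240.3 CPM in CDC, 148, 169 and 169 CPM in CDC-EpiC, and 225, 225 and 232 CPM in pEpiC. The clone was lowest in every library, and CDC and pEpiC lay close to each other. CDC-EpiC was 1.57-fold below CDC (log2 change -0.65, SE 0.083, adjusted p = 4.7e-06) and 1.41-fold below pEpiC (log2 change -0.49, SE 0.059, adjusted p = 2.5e-05). The small difference between pEpiC and CDC (log2 change -0.20, adjusted p = 0.016) turned to 0.29 on the TPM scale. It did not pass without CDC library 1 (adjusted p = 0.053), pEpiC library 1 (0.051) or pEpiC library 2 (0.063), nor with scaling by library size alone (0.21), 1 fit of all libraries (0.056) or FPKM (0.16, limma). Within the family, Plod3 was the largest part of the summed TPM in CDC, with 59.7% ± 2.65 (SD, n = 3), and in CDC-EpiC, with 65.7% ± 0.621, but not in pEpiC, with 28.8% ± 0.382. Plod2 made up 27.1% ± 2.67 in CDC, 15.004% ± 0.664 in CDC-EpiC and 55.4% ± 1.37 in pEpiC. The smallest part in CDC and pEpiC was Plod1, with 13.1% ± 0.632 in CDC, 19.3% ± 0.341 in CDC-EpiC and 15.8% ± 1.01 in pEpiC. No share overlapped between kinds, and each pair gave an exact two-sided permutation p = 0.1, again the smallest possible. The 3 genes summed to 261 ± 16.4 TPM in CDC, 158 ± 11.4 TPM in CDC-EpiC and 661 ± 22.5 TPM in pEpiC.

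Serpinh1 (chr7:99345375-99353239) encodes Hsp47, the chaperone specific to collagen, and was the least changed gene between CDC and the clone. Serpinh1 measured 1526, 1439.8 and 1449.7 CPM in CDC, 1429.5, 1500.0 and 1517 CPM in CDC-EpiC, and 1940.0, 2075 and 2115 CPM in pEpiC. CDC and CDC-EpiC overlapped, and every pEpiC library was above them. The log2 change between CDC-EpiC and CDC was 0.0038 (adjusted p = 0.97), with a 95% interval of -0.17 to 0.18, and its sign differed among the settings tried, from -0.025 to 0.084. Serpinh1 was 1.35-fold higher in pEpiC than in CDC (log2 change 0.43, SE 0.063, adjusted p = 0.00012). The clone was 1.38-fold below pEpiC (log2 change -0.47, SE 0.058, adjusted p = 3.4e-05).

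Among the lysyl oxidases, Lox and Loxl1 had different orders across the kinds. Lox (chr18:52516060-52529867) encodes the founding member of the family. Lox measured 3151, 3007 and 3621 CPM in CDC, 2003, 1936 and 2184 CPM in CDC-EpiC, and 2472, 2686 and 2639 CPM in pEpiC. CDC was highest and the clone lowest in every library. Lox was 1.60-fold lower in CDC-EpiC than in CDC (log2 change -0.68, SE 0.10, adjusted p = 1.5e-05). The clone was 1.28-fold below pEpiC (log2 change -0.35, SE 0.066, adjusted p = 0.00064). That difference was -0.089 (adjusted p = 0.16) with the correction for transcript length. Lox was 1.29-fold lower in pEpiC than in CDC (log2 change -0.37, SE 0.077, adjusted p = 0.0013), but on the TPM scale the difference was 0.14 (adjusted p = 0.23, limma). Loxl1 (chr9:58287723-58313212) encodes the oxidase known for elastic fibres. Loxl1 measured 341, 323 and 329 CPM in CDC, 391, 481 and 456 CPM in CDC-EpiC, and 933, 973 and 868 CPM in pEpiC. The kinds were separated in the order pEpiC, CDC-EpiC, CDC, with means of 331 ± 9.17 CPM in CDC, 443 ± 46.4 CPM in CDC-EpiC and 925 ± 53.3 CPM in pEpiC (SD, n = 3). Loxl1 was 2.71-fold higher in pEpiC than in CDC (log2 change 1.44, SE 0.066, adjusted p = 3e-08) and 1.33-fold higher in CDC-EpiC than in CDC (log2 change 0.42, SE 0.087, adjusted p = 6e-04). The clone was 2.09-fold below pEpiC (log2 change -1.07, SE 0.079, adjusted p = 7.2e-07).

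Loxl2 (chr14:69608692-69695834) encodes an oxidase that acts on the collagen IV of basement membranes among other substrates. Loxl2 measured 296, 263 and 331 CPM in CDC, 318, 385 and 367 CPM in CDC-EpiC, and 329, 374 and 399 CPM in pEpiC. Libraries overlapped between every pair of kinds. The log2 change was 0.26, adjusted p = 0.026 in pEpiC against CDC and 0.26, adjusted p = 0.028 in CDC-EpiC against CDC. The first did not pass without CDC library 1 (adjusted p = 0.077) or 2 (0.1) or pEpiC library 2 (0.077) or 3 (0.11), and it was -0.081 (adjusted p = 0.34) with the correction for transcript length. The second did not pass without CDC library 1 (adjusted p = 0.07) or 2 (0.13) or CDC-EpiC library 2 (0.14) or 3 (0.11). Between CDC-EpiC and pEpiC the log2 change was -0.046 (adjusted p = 0.63), with a 95% interval of -0.24 to 0.15. The sign and the call of this difference depended on the scale, with -0.42 (adjusted p = 0.0017, limma) on the TPM scale and 0.28 (adjusted p = 0.011) with the length correction.

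In the summed TPM of Lox and Loxl1 to Loxl4, Lox made up 79.2% ± 1.10 (SD, n = 3) in CDC, 67.6% ± 2.62 in CDC-EpiC and 60.5% ± 0.966 in pEpiC. Loxl1 made up 11.3% ± 0.954, 20.6% ± 1.77 and 30.2% ± 1.65 in the same order, so that the order of its share was the reverse of that of Lox. Shares of a family have a fixed sum, so these orders depend on each other. In TPM itself, Lox averaged 1223, 802 and 1337 and Loxl1 174, 245 and 667 in CDC, CDC-EpiC and pEpiC. Both had the highest mean in pEpiC, though the Lox values of CDC and pEpiC libraries overlapped. Loxl2 made up 6.38% ± 0.248, 10.5% ± 0.819 and 7.55% ± 0.595. The other members were minor, with 2.25% ± 0.188 of Loxl3 and 0.882% ± 0.0495 of Loxl4 in CDC. None of the 3 largest shares overlapped between kinds, and each pair gave an exact two-sided permutation p = 0.1, the smallest possible. The family summed to 1543 ± 194 TPM in CDC, 1187 ± 89.4 TPM in CDC-EpiC and 2211 ± 117 TPM in pEpiC.

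**Figure D3:**
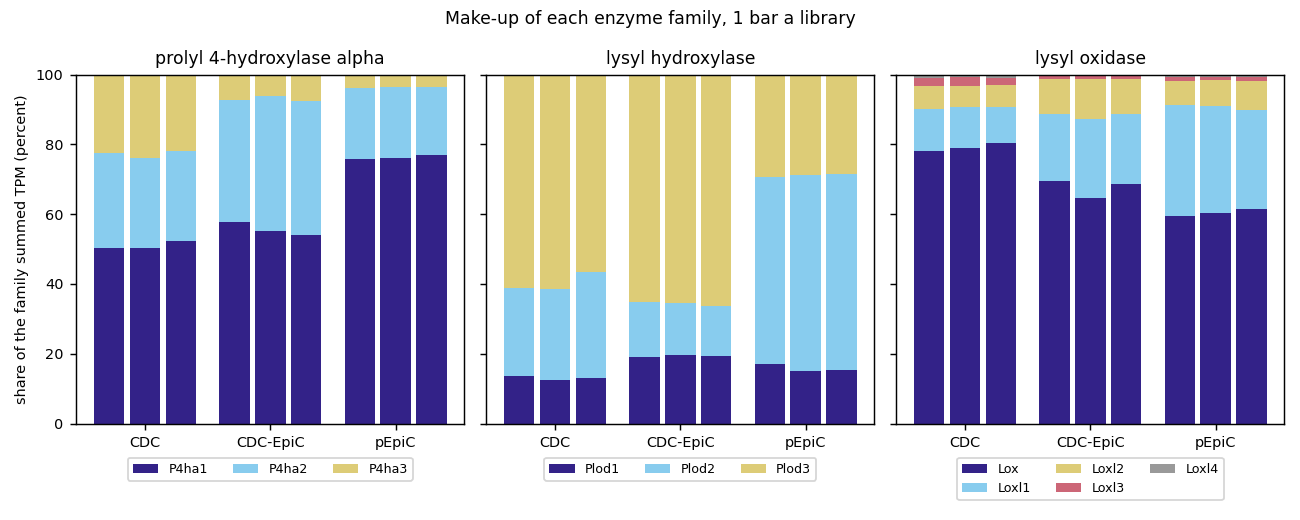
Share of each gene in the summed TPM of its family (vertical axis, percent), with 1 bar for each library and the libraries grouped by kind. P4ha3 takes 22.7% of its family in CDC on average and 3.61% in pEpiC, Plod2 takes 15.004% in CDC-EpiC and 55.4% in pEpiC, and Loxl1 takes 11.3% in CDC and 30.2% in pEpiC.

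The substrate genes, 5 chains of the fibrillar collagens and elastin, had a median absolute log2 change of 1.18 in pEpiC against CDC, 1.42 in CDC-EpiC against CDC and 2.70 in CDC-EpiC against pEpiC. The 10 enzyme genes had 0.49, 0.67 and 0.48 in the same order, and all genes tested had 0.61, 0.44 and 0.71. The enzyme genes were thus below the median of all genes in both comparisons with pEpiC and above it in CDC-EpiC against CDC. In pEpiC against CDC all 6 substrate genes examined were higher, led by Eln (elastin, log2 change 3.89, adjusted p = 3.2e-10) and Col3a1 (2.78, adjusted p = 4.4e-08). In CDC-EpiC against CDC 4 of the 6 were lower, led by Col3a1 (-2.64, adjusted p = 6.2e-10) and Col5a2 (-2.36, adjusted p = 4.1e-11), Eln was higher (1.21, adjusted p = 7.3e-08), and Col1a2 did not pass (-0.23, adjusted p = 0.091). In CDC-EpiC against pEpiC all 6 were lower, Col3a1 by the most (-5.46, adjusted p = 2.6e-10). Summed over Col1a1, Col1a2 and Col3a1, the message was 3290.4 ± 573 TPM (SD, n = 3) in CDC, 1781 ± 222 TPM in CDC-EpiC and 12944 ± 764 TPM in pEpiC.

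Set against this substrate, pEpiC held the least message of the 3 kinds for the P4ha genes, the Plod genes, Serpinh1 and the Lox family, the last of which includes Loxl3 and Loxl4 beside the members. In TPM itself pEpiC had the highest mean of each, at 382, 661, 2213 and 2211 TPM in that order. Its low ratios thus come from the larger sum of the chains, 12944 TPM, and not from less enzyme message. Per 100 TPM of these chains, Serpinh1 stood at 35.8 ± 4.96 TPM (SD, n = 3) in CDC, 69.6 ± 7.15 in CDC-EpiC and 17.1 ± 0.0822 in pEpiC. The Lox family stood at 47.3 ± 3.996, 67.1 ± 6.72 and 17.1 ± 0.611 in the same order. For the prolyl 4-hydroxylase subunits the values were 9.17 ± 0.393, 7.10 ± 0.372 and 2.96 ± 0.132. The clone was above CDC for Serpinh1 and the Lox family and below it for the P4ha genes. The lysyl hydroxylases stood at 8.04 ± 0.957, 8.94 ± 0.526 and 5.11 ± 0.141. Exact two-sided permutation tests of 3 against 3 libraries gave p = 0.1, the smallest they can give, for every pair and group but the lysyl hydroxylases in CDC-EpiC against CDC, where the libraries overlapped (p = 0.3).

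**Figure D4:**
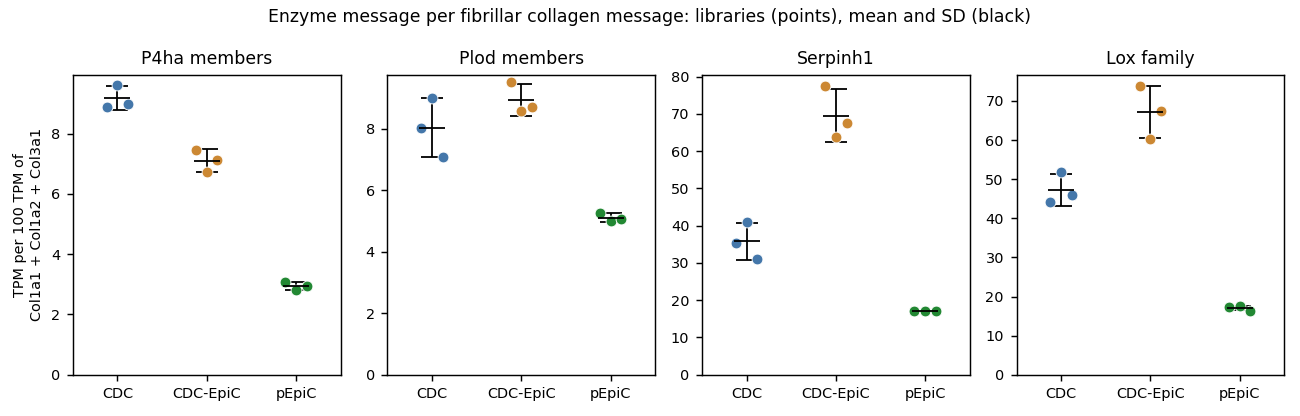
Summed TPM of the P4ha genes, the Plod genes, Serpinh1 and the Lox family (panels) per 100 TPM of Col1a1, Col1a2 and Col3a1 together (vertical axis, from 0), in the 3 libraries of each kind (points) with the mean and SD in black. All pEpiC libraries lie below those of the other kinds in each panel, and Serpinh1 is at 63.7 to 77.5 in the clone against 17.0 to 17.2 in pEpiC.

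The other genes of collagen maturation were taken from a list of which 24 were in the table. In pEpiC against CDC 22 of them were tested, and 12 were higher and 9 lower, where 39.8% of all genes were higher and 38.5% lower. Their median was 0.48 on the log2 scale, beside 0.02 over all genes. Of these 21 calls, 6 changed sign under another scale (Adamts14, Fkbp10 and Loxl4 in TPM, Ppib with the length correction, Crtap and P3h4 in both). Of the same list, 20 were tested in CDC-EpiC against CDC, where 5 were higher and 9 lower (median -0.10). Over all genes 34.2% were higher and 34.6% lower there (median 0.0027), and 68.8% passed in either direction. In CDC-EpiC against pEpiC 22 were tested, and 4 were higher and 17 lower (median -0.77), beside 40.3% and 41.5% of all genes (median -0.018). No call in the comparisons with the clone changed sign under another scale.

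P4hb, the disulfide isomerase that forms the tetramer with the P4ha subunits, averaged 1798 CPM in CDC, 1649 CPM in CDC-EpiC and 1169 CPM in pEpiC. It was lower in pEpiC than in CDC (log2 change -0.67, adjusted p = 7.7e-06) and higher in CDC-EpiC than in pEpiC (0.49, adjusted p = 1.6e-05). The complex of P3h1, Crtap and Ppib hydroxylates a single proline of the chain and helps it fold. Its genes did not move together in pEpiC against CDC, where P3h1 was higher (0.92, adjusted p = 4.1e-07) while Ppib (-0.56, adjusted p = 1.3e-05) and Crtap (-0.29, adjusted p = 0.00075) were lower, both of them with the opposite sign under the length correction, and Crtap in TPM as well. In the clone against pEpiC, P3h1 was lower (-0.51, adjusted p = 1.2e-05) and Ppib higher (1.12, adjusted p = 2.7e-08). P3h4, a partner of lysyl hydroxylase 1 also known as Sc65, was the partner gene that rose most in the clone, against CDC (1.08, adjusted p = 4e-09) and against pEpiC (1.32, adjusted p = 8.6e-09). Fkbp10, known to bind lysyl hydroxylase 2, averaged 352, 337 and 322 CPM in CDC, CDC-EpiC and pEpiC, a far narrower range than that of Plod2. Mia3, Sec23a and Sec24d, which carry procollagen out of the endoplasmic reticulum, were all higher in pEpiC than in CDC, with log2 changes of 1.14, 0.81 and 0.82. All 3 were lower in the clone than in pEpiC, at -1.05, -0.71 and -0.60.

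Procollagen is trimmed outside the cell by proteinases. Adamts2, which removes the N-terminal propeptide, averaged 288 CPM in CDC, 143 CPM in CDC-EpiC and 917 CPM in pEpiC. It was higher in pEpiC than in CDC (1.63, adjusted p = 1.9e-08), lower in the clone than in CDC (-1.01, adjusted p = 2.2e-07) and lower in the clone than in pEpiC (-2.68, adjusted p = 2.2e-09), the same order as that of Plod2. Bmp1, which removes the C-terminal propeptide and activates the Lox precursor, followed that order with smaller changes (0.89, -0.23 and -1.15). Its enhancers Pcolce and Pcolce2 differed: Pcolce was higher (0.52, adjusted p = 9.9e-05) and Pcolce2 lower (-3.40, adjusted p = 3.9e-13) in the clone than in CDC. Loxl4, another lysyl oxidase, averaged 42.3 CPM in CDC and 4.85 CPM in CDC-EpiC (-3.13, adjusted p = 1.2e-12). P3h2 had 1.12 CPM on average in pEpiC and at most 1 count per library in CDC and CDC-EpiC, and Colgalt2 and Tll2 had at most 3 counts in every library.

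**Figure D5:**
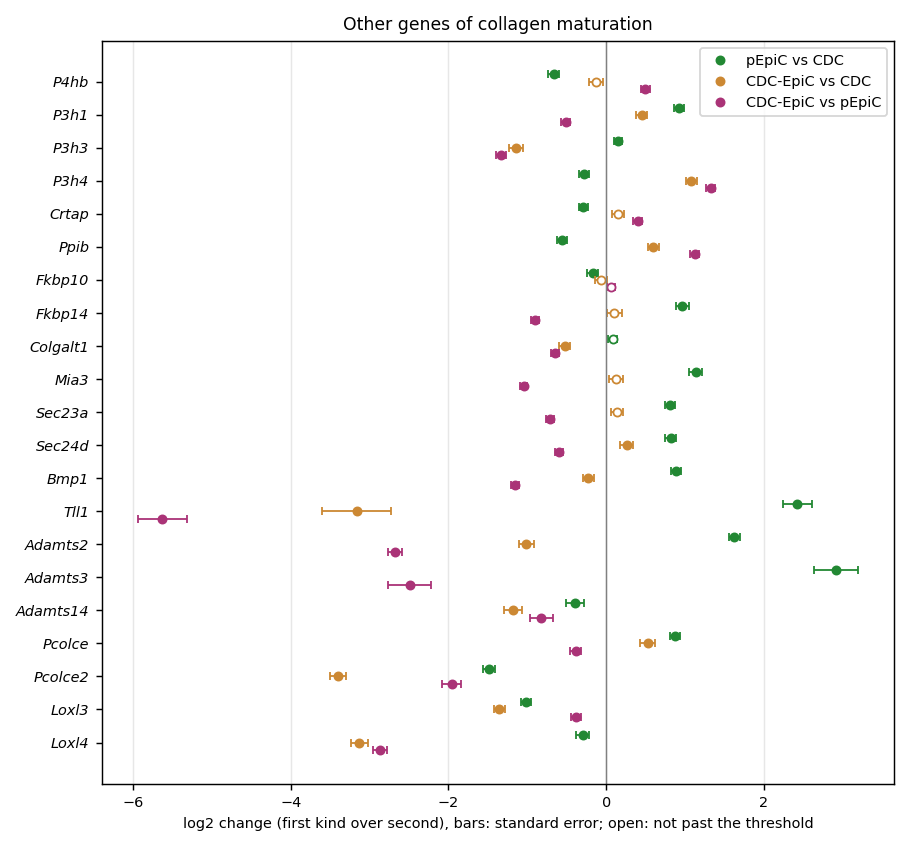
Fitted log2 change (horizontal axis) of 21 other genes of collagen maturation (rows), in the colours and with the standard errors of the plot of the members, with open circles where the adjusted p was not below 0.05; comparisons with a kind in which every library had at most 3 counts are not drawn. Transport genes (Mia3, Sec23a, Sec24d) lie right of 0 in pEpiC against CDC and left of it in CDC-EpiC against pEpiC, and Ppib and P3h4 lie the other way, but both of these change sign in pEpiC against CDC under the length correction, and P3h4 in TPM too.

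Likeness of pattern was measured as the root mean square difference of gene-centred log2(CPM + 1) over the 9 libraries, among 9473 genes with a mean of at least 10 CPM. No member was among the 2 nearest genes of another member. The nearest genes to Plod2 were Reck (0.0665) and Apobr (0.0801), and to P4ha1 Adam9 (0.0522) and Nfe2l1 (0.0542). P4ha3 had the most distant neighbours, Galnt18 (0.230) and Ctla2a (0.236). The closest match of any member was that of Plod3 with Gfm1 (0.0329). Serpinh1 was nearest to Wbp1l (0.0402) and Cic (0.0432), Lox to Hipk2 (0.0571) and Cstf2t (0.0588), and Loxl1 to Adgrl1 (0.0611) and Slc1a5 (0.0810). P4ha2 was nearest to Abca2 (0.0805) and Myh9 (0.0824), Plod1 to Syne1 (0.0609) and Usp16 (0.0802), and Loxl2 to Sertad2 (0.0561) and Dusp3 (0.0650). The distances are a description, since the points share 3 kinds of cell.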

How the data were processed

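Messenger RNA of the 3 kinds of cell was selected on oligo(dT) beads, primed with random hexamers and sequenced as paired reads of 100 bases on a BGISEQ-500, per the labels. The submitters' processing notes name HISAT2 2.0.4, Bowtie2 2.2.5, RSEM 1.2.12, DESeq2 1.4.5 and the mouse build mm10, without saying what each did. The authors deposited expected counts per gene, estimates of which 30.3% were not whole numbers. FPKM values, which the authors deposited as well, are relative to transcript length and depth. TPM values, also deposited, share 1 sum over all libraries. The use of strand is not given in the sources used here, so reads of overlapping genes cannot be told apart. The table also holds 9 columns of the authors' means, which were not used.

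Expected counts were rounded and fitted for each pair of kinds (6 libraries) in edgeR 4.0.16 under R 4.3.3, after filterByExpr (minimum count 10, minimum total 15) and TMM normalization, with glmQLFTest and Benjamini-Hochberg adjustment at 0.05. Intervals are 95% intervals of the fitted change. Shares of a family and enzyme per substrate were computed from TPM in Python 3.11.15 and compared by exact permutation. The alternatives were DESeq2 1.42.0, scaling by RLE or by library size, testing every gene or those with 10 counts or more in each library, 1 fit for all 9 libraries, limma 3.58.1 on log2(TPM + 1), log2(TPM + 0.1) and log2(FPKM + 1), a test against a 1.5-fold change, an offset for transcript length, a replicate block and leaving out each library. The edgeR fit was tested on simulated data with known changes.

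The members and gene lists were chosen with earlier results of these data known. Every member is named; of the other lists, the genes named have a stated role or are among the 6 with the largest changes. Gene positions and promoters are those of RefSeq on GRCm38.p6. Libraries of a kind differed beyond sampling of reads, with chi-square values of 4.89 to 23.0 times their degrees of freedom.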

Additional observations from a re-analysis of the deposited data

How the results depend on the processing

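Against a 1.5-fold change, 4 of the 10 members passed in each comparison, beside 41.0% of all genes in pEpiC against CDC, 28.2% in CDC-EpiC against CDC and 48.6% in CDC-EpiC against pEpiC: P4ha3, Plod1, Plod2 and Loxl1 in pEpiC against CDC, P4ha1, P4ha2, P4ha3 and Plod2 in CDC-EpiC against CDC, and P4ha1, Plod1, Plod2 and Loxl1 in CDC-EpiC against pEpiC. Of the other genes of collagen maturation, 13 of 22 tested passed that test in pEpiC against CDC (11 higher, 2 lower). In CDC-EpiC against CDC 8 of 20 did (1 higher, 7 lower). Of 30 changes, 1 for each member and comparison, 12 kept their direction and their side of the threshold in all 18 alternatives. Over all alternatives, 479 values did so, 43 no longer passed, 2 passed newly and 16 changed sign. In pEpiC against CDC, Lox (0.14 with both pseudocounts on TPM), Plod3 (0.29 with both) and, with the length offset, Loxl2 (-0.081) changed sign. In CDC-EpiC against pEpiC, Loxl2 did so with the length offset (0.28) and without CDC-EpiC library 1 (0.032) or pEpiC library 3 (0.016), the alternatives that leave out 1 library ranging from -0.12 to 0.032. Serpinh1 in CDC-EpiC against CDC, which passed nowhere, did so with DESeq2 (-0.0019), RLE (-0.0019), 10 counts in every library (-0.0030), the length offset (-0.020) and without 4 of the 6 libraries in turn, where all 6 such values ranged from -0.025 to 0.029. The cause was not tested; in TPM the median change of all genes in pEpiC against CDC was 0.41. Leaving out 1 library at a time gave 8 to 10 members past the threshold in pEpiC against CDC (73.4% to 78.5% of all genes), 7 to 9 in CDC-EpiC against CDC (62.6% to 68.6%) and 8 to 9 in CDC-EpiC against pEpiC (78.4% to 80.4%). With expected counts, which are not per length, P4ha1 made up 56.8%, 62.2% and 80.5% of its family in CDC, CDC-EpiC and pEpiC, Plod2 32.1%, 18.1% and 60.5%, and Lox 81.3%, 71.0% and 65.5%. DESeq2 gave 10, 9 and 9 members past the threshold in the 3 comparisons, beside 75.1%, 66.1% and 78.3% of all genes. With a replicate block the counts of members were 10, 9 and 9 as well, beside 78.4%, 68.1% and 81.9%, but the library numbers share no stated origin, and the correlations of same-numbered libraries were -0.147 to 0.185. Precision is limited by 3 libraries a kind of unstated origin, and intervals cover the spread of these libraries alone.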

Other observations

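Lists of general folding and of oxygen response genes describe the setting of the enzymes. Their counts stand beside all genes, of which 39.8% were higher and 38.5% lower in pEpiC against CDC. These shares were 34.2% and 34.6% in CDC-EpiC against CDC, and 40.3% and 41.5% in CDC-EpiC against pEpiC. Of 8 general folding genes of the endoplasmic reticulum, 3 were higher and 3 lower in pEpiC than in CDC, none by 2-fold, with a median log2 change of -0.13 beside 0.02 over all genes, and Canx, Hsp90b1 and Pdia6 among those 6 changed sign with another scale. In CDC-EpiC against CDC, 5 were higher and 3 lower, and Ero1l, the oxidase that recharges protein disulfide isomerase, fell most (log2 change -2.06, adjusted p = 1e-10). In CDC-EpiC against pEpiC 4 were higher and 3 lower, again with Ero1l the lowest (-2.53, adjusted p = 5.2e-09) and Calr, a calcium-binding chaperone, the highest (1.04, adjusted p = 2.1e-07), and Pdia3 changed sign in TPM.

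Of 12 genes known to respond to low oxygen, 2 were higher and 9 lower in pEpiC than in CDC (median -1.52), beside 39.8% and 38.5% of all genes (median 0.02). The lower ones included Ldha, lactate dehydrogenase (log2 change -2.37, adjusted p = 6.3e-09), and Pgk1, a glycolytic kinase (-2.20, adjusted p = 4.1e-09), and the higher ones were Adm, adrenomedullin (2.38, adjusted p = 1e-09), and Vegfa, a vascular growth factor (0.45, adjusted p = 8.2e-05). In CDC-EpiC against CDC 10 were lower and 2 higher (median -1.22), beside 34.6% and 34.2% of all genes (median 0.0027). Among them were Adm (-3.26, adjusted p = 1.6e-12) and, in the other direction, Car9, a carbonic anhydrase (3.31, adjusted p = 6.4e-10). In CDC-EpiC against pEpiC 6 were higher and 3 lower (median 0.50), beside 40.3% and 41.5% of all genes (median -0.018). Of the 12 genes, only Adm and Vegfa had the order of Plod2 and P4ha1 in their means, highest in pEpiC and lowest in the clone. Most of the list, Ldha and Pgk1 among them, had the highest mean in CDC, and Ndrg1 and Car9 had it in the clone. A link of this list to the enzyme genes was not tested. None of the calls in this list changed sign under another scale.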
